A study of Homo sapiens with 12 samples.

Results

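RERG and its relatives among the Ras family of small GTPases were followed in PANC-1 cells whose TIMP1 transcript was targeted by a hairpin. The group holds 10 genes: RERG, the classical Ras genes HRAS and NRAS, the R-Ras genes RRAS, RRAS2 and MRAS, the Ral genes RALA and RALB, and the Rap genes RAP1A and RAP1B. Its probes were those whose platform symbol is one of these names, 13 of the 47323 probes on the array, and they covered 9 of the 10 genes. NRAS had no probe under its symbol in the annotation used here, so no value is given for it. RERG was chosen from its low signal in knockdown cells on these same arrays, so its difference is given as a description and supports nothing further. The other genes were taken with it as members of the same protein family.

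PANC-1 cells are a long-established human line derived from a ductal pancreatic carcinoma. In the 6 TIMP1 knockdown samples the cells carried an integrated lentiviral pLKO.1 vector encoding a hairpin RNA that targets TIMP1, a secreted inhibitor of matrix metalloproteinases. In the 6 control samples, titled WildType, they carried the pLKO.1 puro vector alone, so both groups had been transduced and both were grown with puromycin. The labels do not name the hairpin sequence, and they do not say whether the lines were clones or whether the 6 replicates were separate cultures. The p-values therefore reflect only how these 12 samples varied, and part or all of that spread may be technical.

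Ras family proteins are molecular switches that signal when bound to GTP and are silent when bound to GDP. Exchange factors load them with GTP, GTPase-activating proteins switch them off, and a lipid attached at the C-terminus holds most of them at membranes, where they engage effectors such as RAF kinases, Ral exchange factors and adhesion adaptors. RERG, the Ras-related and estrogen-regulated growth inhibitor, is an unusual relative that lacks the C-terminal lipid signal; it was described in breast cancer cells, where estrogen raises it and its overexpression slows growth.

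Values are normalised log2 intensities unless a linear signal is named, and a probe was called detected where 6 or more of the 12 arrays gave it a detection p under 0.05. By that rule 9 of the 13 probes were detected, covering 8 genes, against 16495 probes and 9780 genes over the whole array. Between 15898 and 17680 probes had a detection p under 0.05 per knockdown array, against 15681 to 16565 per control array. The mean was 16861 ± 641 in the knockdown and 16160 ± 350 in the controls (SD, n = 6 each, exact two-sided permutation p = 0.0498). Knockdown 2 and knockdown 6 had the most. The targeted gene TIMP1 lay between 13.49 and 13.63 in the knockdown and between 13.64 and 13.86 in the controls, a log2 fold change of -0.19 (exact two-sided permutation p = 0.00216, the smallest that 6 arrays against 6 can give; limma adjusted p = 0.101). With median scaling the log2 fold change was -0.12 (exact permutation p = 0.119), where the median of all detected probes moved to 0.12. All 5 epithelial and ductal markers (KRT7, KRT8, KRT18, KRT19 and SOX9) were detected on every array. PTPRC, CD3E and VWF, of leukocytes and endothelium, were detected on none, while PECAM1 and CD68 of the same list were detected on all 12. Of 5 fibroblast and stellate cell markers 0 passed the detection rule. Of the acinar and islet markers PRSS1 and CELA3A passed it, with log2 fold changes of -0.19 and -0.45, neither past the test (limma adjusted p = 0.118 and 0.378). PRSS1 ranged from 11.20 to 11.44 in the knockdown and from 11.49 to 11.63 in the controls, without overlap. Over the whole array 0.546% of detected probes lay lower without overlap. What part these marker differences have in the values of the Ras genes was not tested.

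RERG was lower in TIMP1 knockdown cells, by 1.68-fold on the normalised scale. Its single probe gave a lowest, median and highest log2 intensity of 6.38, 6.75 and 7.09 over the 6 knockdown arrays, against 7.16, 7.54 and 7.75 over the 6 control arrays. No knockdown array reached the lowest control, but the edge was narrow: knockdown 1 lay at 7.09 and control 5 at 7.16. The means were 6.78 ± 0.24 in the knockdown and 7.53 ± 0.22 in the controls (SD, n = 6 each). The log2 fold change was -0.74 with a 95% confidence interval of -1.01 to -0.47, or 1.39-fold to 2.02-fold lower. It was the 14th lowest log2 fold change among the 16495 detected probes, and this low place is what chose the gene.

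**Figure D1:**
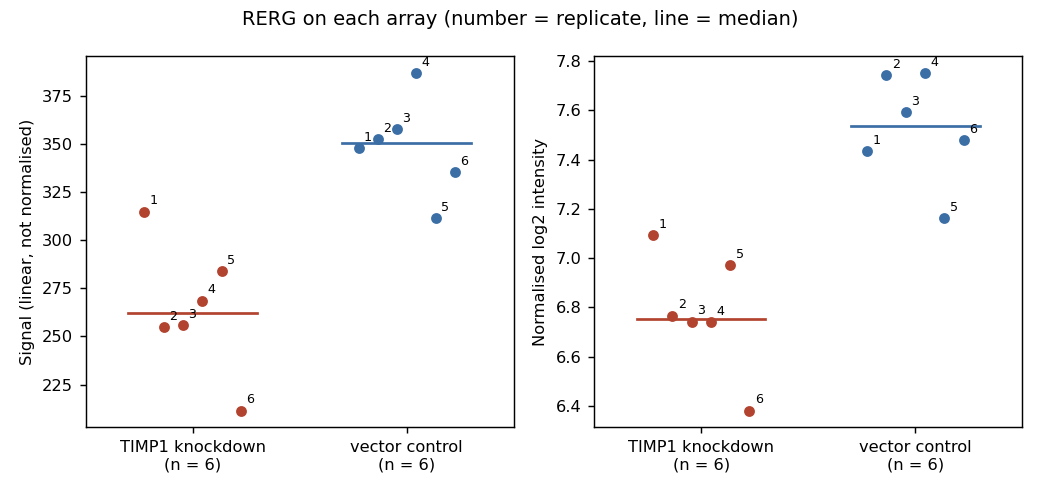
RERG on each array, as the linear signal before normalisation (left) and as the normalised log2 intensity (right); points are arrays, numbers are replicate numbers and lines are group medians, with knockdown left of control. On the linear scale knockdown 1 at 314.7 lies above control 5 at 311.3, and after normalisation they lie at 7.09 and 7.16.

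Before normalisation the linear RERG signal ranged from 211.5 to 314.7 with a median of 262.3 in the knockdown, against 311.3 to 386.5 with a median of 350.1 in the controls. On that scale the groups overlapped, because knockdown 1 at 314.7 exceeded control 5 at 311.3. RERG was a dim probe in both groups, since the median signal of all probes was 175.3 to 201.2 on the 6 knockdown arrays and 176.6 to 196.8 on the 6 controls. Its detection p was between 0.0286 and 0.0481 on the knockdown arrays and between 0.0104 and 0.0351 on the controls, so it counted as detected on all 12 but never far inside the limit.

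The size of the RERG difference followed the treatment of background. Without background correction the log2 fold change was -0.37, which is the same to 2 decimals as with the authors' processed values, and with a plain normexp correction and an offset of 50 it was -0.48. With median scaling in place of quantile normalisation, which moved the median of all detected probes to 0.12, it was -0.70. The direction was the same under each of the 23 alternatives that gave a value, with log2 fold changes between -0.82 and -0.37. For many of these the direction was fixed in advance. Leaving out arrays could not turn it, since the groups did not overlap, and some other fits keep the same group means by design. The count of alternatives is therefore no support for the difference. The RERG log2 fold change was -0.64 without knockdown 2 and knockdown 6, the arrays with the most detected probes, and -0.64 with the number of detected probes as a covariate. In neither setting was it past the threshold (limma adjusted p = 0.153 and 0.431). Knockdown 6, which had the most detected probes at 17680, had the lowest RERG value of 6.38. Knockdown 1, which had the fewest of the knockdown arrays at 15898, had the highest of the knockdown values at 7.09. The other arrays did not keep to that order: knockdown 2, with 17360, had 6.77. Among the controls, control 5 had the fewest detected probes at 15681 and the lowest RERG value at 7.16. Control 1 had the most at 16565, with a RERG value of 7.43. What part the number of detected probes has in the RERG difference was not tested beyond these settings.

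**Figure D2:**
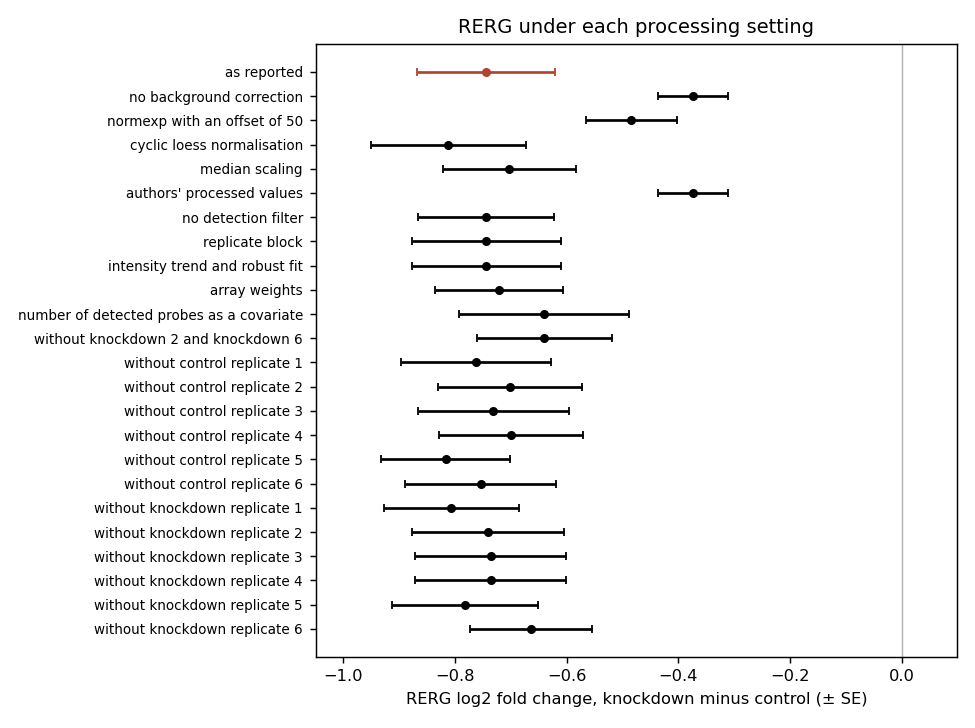
RERG log2 fold change, knockdown minus control, under the reported processing (top, red) and each alternative that gave a value, with bars of ± 1 SE. All points lie below 0, from -0.82 without control replicate 5 to -0.37 without background correction.

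The antisense gene RERG-AS1, which lies inside RERG in the RefSeq annotation of GRCh38.p14 and is not counted among the members, has a probe of its own. It was detected on 0 knockdown arrays and 1 control array. Its log2 intensity ranged from 5.90 to 6.23 in the knockdown and from 5.86 to 6.62 in the controls, so the groups overlapped.

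HRAS, a classical Ras protein that signals through RAF and PI3-kinase, had nearly the same level in both groups. Its detected probe ranged from 10.37 to 10.53 with a median of 10.46 in the knockdown, against 10.39 to 10.50 with a median of 10.41 in the controls. The groups overlapped fully, and the log2 fold change was 0.03 ± 0.04 (SE, n = 6 per group; limma adjusted p = 0.717). Its 95% confidence interval ran from -0.05 to 0.11. The other HRAS probe was detected on 0 of the 12 arrays and stayed near background, between 5.48 and 5.72 in the knockdown and between 5.55 and 5.62 in the controls.

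Among the R-Ras genes, RRAS, which promotes integrin-mediated adhesion, varied most between arrays. It ranged from 9.13 to 9.74 with a median of 9.29 in the knockdown, against 9.07 to 9.44 with a median of 9.26 in the controls. Knockdown 2 at 9.74 and knockdown 6 at 9.52 lay above every control, and the other 4 knockdown arrays, at 9.13 to 9.34, lay among the controls. The log2 fold change was 0.10 ± 0.10 (SE; limma adjusted p = 0.687). It was -0.04 without knockdown 2 and knockdown 6 and -0.08 with the number of detected probes as a covariate, so its sign rested on these 2 arrays.

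RRAS2, also called TC21, which couples to PI3-kinase, was read by 2 detected probes that gave much the same answer. The brighter probe ranged from 10.00 to 10.21 in the knockdown and from 9.99 to 10.18 in the controls, with a log2 fold change of -0.02 (95% confidence interval -0.12 to 0.07; limma adjusted p = 0.830). The dimmer probe ranged from 9.37 to 9.68 in the knockdown and from 9.44 to 9.62 in the controls, with a log2 fold change of 0.01 (-0.11 to 0.13; adjusted p = 0.941). Both sets of arrays overlapped throughout. With median scaling the brighter probe had 0.11, below the 0.12 that all detected probes then shared. MRAS, which joins SHOC2 and a phosphatase in a complex that activates RAF, was detected on 0 of the 12 arrays. Its linear signal ranged from 142.6 to 176.6 in the knockdown and from 134.4 to 160.7 in the controls. Nothing is read from its fold change, which appears only as an open point in the figure of all member probes.

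The Ral proteins act downstream of Ras through the exocyst, a complex that tethers secretory vesicles to the plasma membrane. RALA ranged from 11.45 to 11.63 with a median of 11.54 in the knockdown, against 11.53 to 11.69 with a median of 11.57 in the controls. The groups overlapped, and the log2 fold change was -0.04 ± 0.04 (SE; limma adjusted p = 0.642), or 0.09 with median scaling, which is below the 0.12 that all detected probes then shared. RALB ranged from 10.50 to 10.70 with a median of 10.56 in the knockdown, against 10.38 to 10.60 with a median of 10.49 in the controls. Each of the 6 knockdown arrays exceeded the control median, but only knockdown 6 exceeded the highest control. The log2 fold change of RALB was 0.09 ± 0.05 (SE; limma adjusted p = 0.398), with a 95% confidence interval of -0.01 to 0.19.

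RAP1A and RAP1B, which activate integrins and strengthen cadherin junctions, were dim. The brighter probe of RAP1B ranged from 7.08 to 7.61 with a median of 7.27 in the knockdown, against 6.84 to 7.16 with a median of 7.03 in the controls. All 6 knockdown arrays lay above the control median, while knockdown 1 at 7.08 lay below control 2 at 7.16 and control 5 at 7.10, so the groups overlapped. The log2 fold change was 0.29 ± 0.08 (SE), which did not pass the test over all detected probes (limma adjusted p = 0.190; between 0.0770 and 0.732 over 23 alternatives). Its 95% confidence interval of 0.10 to 0.47, like the other intervals here, is for this probe alone and is not adjusted for the number of probes. Without background correction the RAP1B value was 0.14. The second RAP1B probe was detected on 0 of the 12 arrays and carries no information on this difference.

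RAP1A differed in how often it was detected but not visibly in level. Its brighter probe was detected on 6 knockdown arrays and on 1 control array, so it passed the detection rule through the knockdown. Yet its log2 intensity ranged from 6.38 to 6.79 in the knockdown and from 6.46 to 6.77 in the controls, with a log2 fold change of 0.04 (95% confidence interval -0.11 to 0.20; limma adjusted p = 0.820) that was -0.0037 with cyclic loess normalisation. The detection p lay between 0.0403 and 0.0481 on the knockdown arrays and between 0.0416 and 0.0610 on the controls, on both sides of the limit of 0.05. The other RAP1A probe was detected on 2 arrays of each group and ranged from 6.30 to 6.72 in the knockdown and from 6.15 to 6.70 in the controls.

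**Figure D3:**
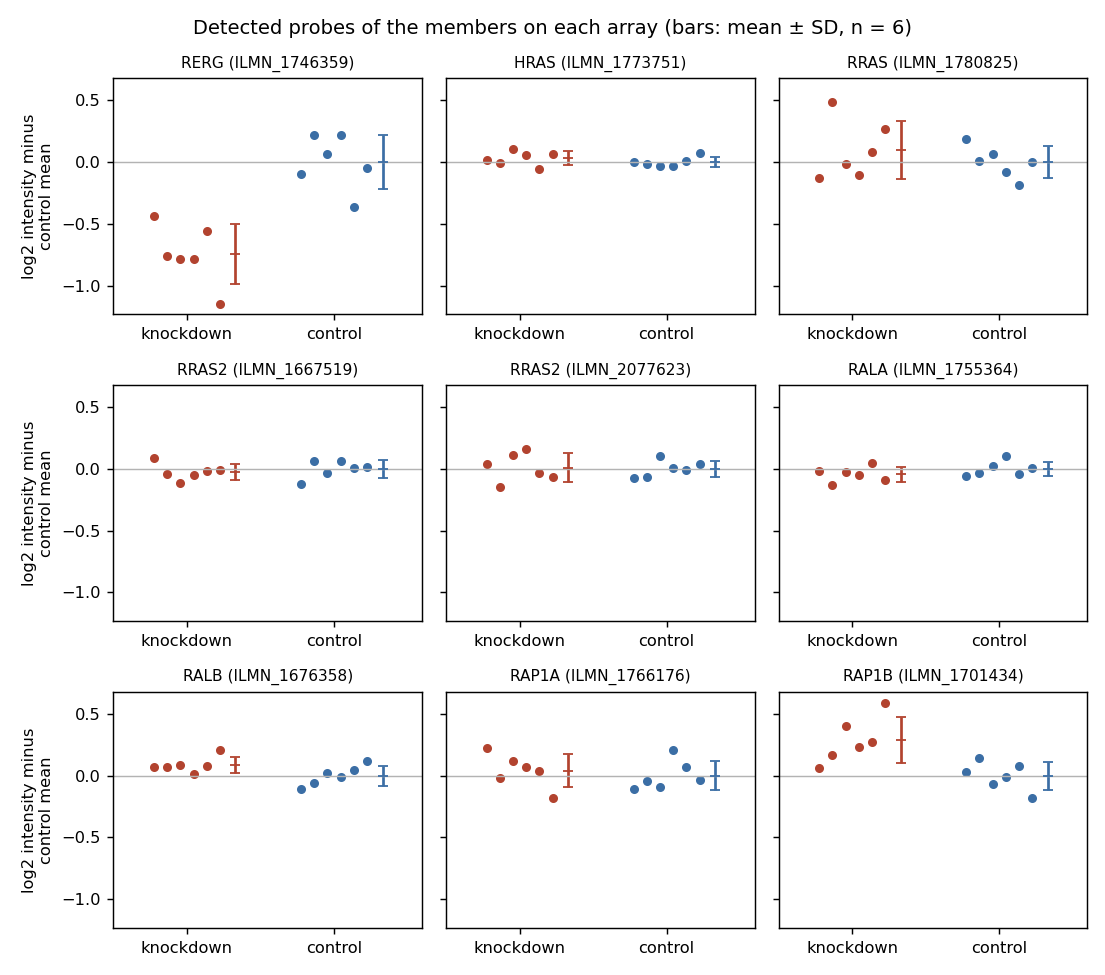
Normalised log2 intensity of the 9 detected probes on each array, minus the mean of the 6 controls for that probe; points are arrays, knockdown left of control, and bars are the group mean ± SD (n = 6). RERG is the probe whose groups do not overlap, RAP1B leans upward, and knockdown 2 and knockdown 6 stand above the other arrays for RRAS.

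Of the 9 detected probes of the group, 1 was past the threshold of the fit over all detected probes, and it was lower: RERG, the gene chosen from this contrast. Over the whole array 0.0485% of detected probes were lower by that call and 0.255% were higher. The same probe was the 1 of 9 whose groups did not overlap, where 0.546% of detected probes lay lower without overlap and 1.02% higher. Since RERG entered through this contrast, nothing is read from either count. Its place past the threshold also depended on single arrays: leaving out any of 9 of the 12 arrays ended it, and it was kept without control 5, control 6 or knockdown 1.

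For the 7 other genes with a detected probe, 0 passed the limma test over all detected probes, and 1, RAP1B, had an unadjusted p under 0.05, where 14.5% of all detected probes did. Their log2 fold changes lay between -0.04 and 0.29 with a median of 0.04, beside a median of 0.02 over all 9780 detected genes. The 95% confidence intervals of HRAS, RRAS2, RALA, RALB and RAP1A all lay between -0.13 and 0.20, and those of RRAS and RAP1B reached 0.32 and 0.47.

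**Figure D4:**
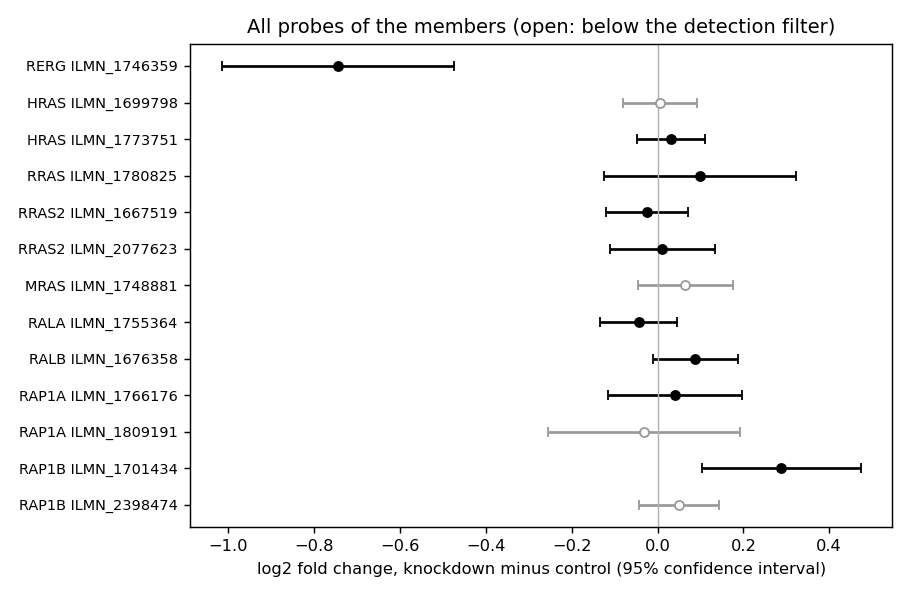
Log2 fold change, knockdown minus control, with its 95% confidence interval for all 13 probes of the group; filled points passed the detection rule and open points did not. RERG stands at -0.74, and the 8 other detected probes lie between -0.04 and 0.29.

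The genes that regulate and read these GTPases were then described by role, in 9 lists that held 125 genes, of which 72 had a detected probe. By limma, 0 of the 72 passed the test in either direction on their brightest detected probe, where 0.337% of all detected genes were higher and 0.0511% lower. At an unadjusted p under 0.05 there were 16 above 0 and 4 below it, beside 971 and 494 of all 9780 detected genes. The 16 include KSR2 and RABGGTA, whose probes were each detected on 6 knockdown and 2 control arrays. These 2 probes met the detection rule largely through the group where they are higher, while most of the 16 were detected on every array. The lists were chosen with earlier results of these data known and the count was not tested, so nothing is read from it. The median log2 fold change of the 72 was 0.06. The groups did not overlap for 2 of them, NKIRAS2 and RAPGEF5, both higher, where 1.02% of all detected probes were higher without overlap.

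Of 25 other GTPases of the Ras subfamily 10 were detected, with a median log2 fold change of 0.11. NKIRAS2, a Ras-like protein that restrains NF-kB, ranged from 9.56 to 9.76 in the knockdown against 9.39 to 9.49 in the controls, without overlap. Its log2 fold change was 0.18 (limma adjusted p = 0.121). RHEB, the activator of mTORC1, had -0.13 and its close relative RHEBL1 had 0.40 (adjusted p = 0.237 and 0.202). RERGL, the RERG-like gene, had a probe that did not pass the detection rule.

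The genes that switch Ras on and off were sparsely measured. Of 11 Ras exchange factors 3 were detected, and RASGRP3, which responds to diacylglycerol, had a log2 fold change of 0.37 from a probe detected on 5 knockdown and 3 control arrays (limma adjusted p = 0.224). SOS1, which acts below receptor tyrosine kinases, had -0.08, and RASGEF1A had 0.01 with an SE of 0.32. Of 10 GTPase-activating proteins 2 were detected, RASA2 at 0.21 (adjusted p = 0.205) and RASAL3 at -0.27 (adjusted p = 0.461).

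On the Ral branch 7 of 12 genes were detected, with a median of 0.06. RALGAPA1, a subunit of the complex that switches Ral off, had 0.12 (limma adjusted p = 0.326), the exocyst subunit EXOC2 had 0.08, and RALGDS, the exchange factor that links Ras to Ral, had 0.08, or -0.03 without knockdown 2 and knockdown 6. On the Rap branch 12 of 18 genes were detected, with a median of 0.09. RAPGEF5, a Rap exchange factor, ranged from 9.58 to 10.04 in the knockdown against 9.36 to 9.48 in the controls, without overlap, and had a log2 fold change of 0.34 (adjusted p = 0.117). Of 5 detected proteins that switch Rap off or are related to such proteins, 4 had values above 0, among them 0.22 for RAP1GAP2 and 0.44 for SIPA1L3 (adjusted p = 0.233 and 0.214). The other, SIPA1L1, had -0.23 (adjusted p = 0.306) and is named after its value was seen. Without knockdown 2 and knockdown 6, RAPGEF5 had 0.21, RAP1GAP2 0.12 and SIPA1L3 0.28.

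Of 12 genes of the RAF-MEK-ERK cascade 7 were detected, with a median of 0.04. KSR2, a scaffold of the cascade, had 0.46 from a probe detected on 6 knockdown and 2 control arrays (limma adjusted p = 0.187), or 0.23 without background correction. MAP2K1, which encodes MEK1, had 0.12 and MAPK3, which encodes ERK1, had 0.13 (adjusted p = 0.268 and 0.508), and MAPK3 had 0.025 without knockdown 2 and knockdown 6. All 17 genes of ERK feedback and output were detected, with a median of 0.03 and a range of -0.11 to 0.32. SPRY1, a feedback inhibitor, had -0.11 and the immediate early gene EGR1 had -0.09 (adjusted p = 0.328 and 0.314), which with median scaling became 0.02 and 0.05, both below the shared shift of 0.12. FOS had 0.32 (adjusted p = 0.366) from a probe detected on 5 knockdown arrays and 1 control array, and 0.12 without knockdown 2 and knockdown 6.

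All 10 genes of lipid attachment and processing of small GTPases were detected, with a median of 0.06. ZDHHC9, a subunit of the enzyme that palmitoylates HRAS and NRAS, had 0.11, PDE6D, which ferries lipid-modified Ras proteins through the cytosol, had 0.12, and RABGGTA, of the Rab prenyltransferase, had 0.18 (limma adjusted p = 0.219, 0.341 and 0.219). The RABGGTA probe was detected on 6 knockdown and 2 control arrays and had 0.086 without background correction. RERG is known as a target of estrogen in breast cancer cells, and 4 of 10 genes of the estrogen receptor and its targets were detected. The receptors ESR1, ESR2 and PGR were not among them. FOXA1, a cofactor of the receptor, had 0.14 (adjusted p = 0.253), CA12 had 0.11, and TFF1 had -0.12, or 0.12 without knockdown 2 and knockdown 6.

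For some other genes of the lists the size of the value also depended on the arrays or on the background treatment. Without knockdown 2 and knockdown 6, RHEBL1 had 0.26, RASGRP3 0.21, RABGGTA 0.11, PDE6D 0.060 and EXOC2 0.038, while RASAL3 had -0.15, SOS1 -0.12 and RASGEF1A 0.14. Without background correction, RHEBL1 had 0.20, SIPA1L3 0.22, RASGRP3 0.18, FOS 0.15, RASA2 0.12, RALGAPA1 0.069 and CA12 0.065, while RASAL3 had -0.18, SOS1 -0.036 and RASGEF1A 0.0083.

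**Figure D5:**
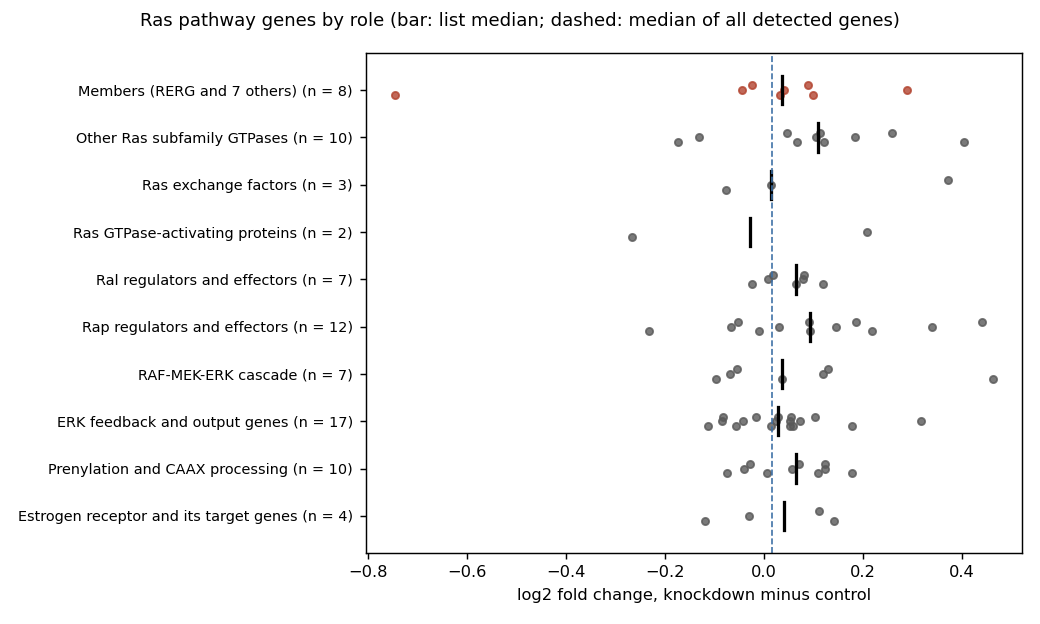
Log2 fold change, knockdown minus control, of the brightest detected probe of each gene, by role; points are genes, black bars are list medians and the dashed line at 0.02 is the median of all 9780 detected genes. RERG is the point at -0.74, and the 72 genes of the lists lie between -0.27 and 0.46.

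The genes whose pattern was most like that of RERG within the groups were found by correlating deviations from the group means over the 12 arrays, which removes the group difference. Among 9659 genes the closest was CCNI2, of the cyclin I family, with a Pearson r of 0.89 and a Spearman rho of 0.86. ASPM, a protein of the mitotic spindle pole, had an r of 0.83, B3GAT1, a glucuronyltransferase that makes the HNK-1 epitope, 0.82, CISD2, an iron-sulfur protein of the endoplasmic reticulum, 0.82, and the antisense RNA ZEB1-AS1 0.81. They are the top of 9659 values from 12 arrays and are given as a description with no test. All 5 had log2 fold changes below 0, and CCNI2, ASPM, B3GAT1 and CISD2 were lowest of the knockdown arrays on knockdown 6, as RERG was. CCNI2 ranged from 6.51 to 7.82 in the knockdown and from 7.54 to 8.53 in the controls, with a log2 fold change of -0.79 ± 0.23 (SE; limma adjusted p = 0.185). B3GAT1 had -0.45 and ZEB1-AS1 -0.22 (adjusted p = 0.434 and 0.682), and ASPM and CISD2 had -0.02 and -0.03 (adjusted p = 0.865 and 0.876).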

How the data were processed

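RNA of 12 PANC-1 samples was measured on Illumina bead arrays, and groups and replicate numbers came from the sample titles. The deposited table held a linear signal intensity per probe and array, not normalised, and a detection p-value, per the file headers; in the authors' processed table the intensity values equalled a quantile normalisation of that signal to a relative difference of 3.33e-10. Limma is named in the submitters' processing notes, with no role. The scanner software, like the genome build, was not given in the sources used here.

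Signals were corrected and normalised with neqc of limma 3.58.1 in R 4.3.3 (controls inferred from detection p-values, offset 16, quantile normalisation, log2). This offset shrinks the fold changes of dim probes, but the correction as a whole did not make them small. RERG and RAP1B had -0.74 and 0.29 with it, against -0.37 and 0.14 without background correction. Probes with a detection p under 0.05 on at least 6 arrays were kept. Groups were compared by limma (lmFit, eBayes, group term, two-sided) with Benjamini-Hochberg adjustment over all 16495 kept probes and a threshold of 0.05. Each log2 fold change is the knockdown mean minus the control mean. TIMP1 and the number of detected probes had exact permutation tests over 924 assignments. The number of arrays limits the precision.

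Symbols came from the platform annotation, updated by gene number through a RefSeq table (GRCh38.p14); 30113 probes had 1 symbol, 8 several and 17202 none. A gene is its brightest detected probe. The members and lists were chosen with earlier results of these data known. The text names all member probes, TIMP1, the 3 detected genes of smallest p in each list and the 5 genes most like RERG; RERG-AS1, RERGL, undetected estrogen receptors and cell type markers were added to these. Alternatives were other background corrections, normalisations, filters and fits, the authors' values, a replicate block and leaving out arrays. Figures were drawn with matplotlib 3.10.9.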

Additional observations from a re-analysis of the deposited data

Results flagged for a closer look

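In 4 of 82 sets of 6 arrays the highest or lowest array stood apart, with a gap to its neighbour larger, as a share of the whole range, than Dixon's 95% critical value. Chance flags about 1 set in 20. For RALB in the knockdown the gap was 0.658 of the range, with knockdown 6 at 10.70 above the next at 10.57. For HRAS in the controls it was 0.633, with control 6 at 10.50 above the next at 10.43. For CISD2 in the knockdown it was 0.68, with knockdown 6 at 9.30 below the next at 9.55. For RASGEF1A in the controls it was 0.684, with control 1 at 6.05 below the next at 7.44.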

How the results depend on the processing

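The RERG log2 fold change of -0.74 was -0.37 without background correction, -0.37 with the authors' values and -0.48 with normexp and an offset of 50; it was -0.82 to -0.66 with single arrays left out. RERG did not pass a detection p under 0.01 on all 12 arrays, so that setting gave it no value. The count of 1 member probe called became 0 with no detection filter, with that stricter one, with the replicate block, with the covariate and without knockdown 2 and knockdown 6, and was 0 to 1 with single arrays left out. The 50 probes called over the whole array became 32 with cyclic loess, 11 with median scaling, 11 with no filter, 28 with the replicate block, 90 with an intensity trend and robust fit, 2 without knockdown 2 and knockdown 6, 1 at an adjusted p under 0.01, and 0 with the covariate by limma (1152 at an unadjusted p under 0.05). With single arrays left out they were 1 to 145, the highest without knockdown 1. TIMP1 had -0.12 with median scaling (exact permutation p = 0.119), beside a shared shift of 0.12. Signs turned for RAP1A with cyclic loess (-0.0037), for RRAS2 and RALA with median scaling (0.11 and 0.094, beside a shared shift of 0.12), and for RRAS with the covariate (-0.085) and without knockdown 2 and knockdown 6 (-0.040); none of these 4 genes was called in any setting. HRAS, RALB and RAP1B kept their sign and stayed uncalled in each setting that gave them a value. RERG was not called with the replicate block (limma adjusted p = 0.123). The evidence on pairing was mixed: deviations of same-numbered arrays correlated at -0.11 to 0.19, over 0.1 in 3 of 6 pairs, and 2 of 6 knockdown arrays correlated best with the control of their number. Signal near background limits RERG, RAP1A and RAP1B, and MRAS was not measurable.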
